A study of Mus musculus with 48 samples.

Results

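Accessible regions in gene deserts are stretches of open chromatin whose centre lies more than 500 kb from every RefSeq protein-coding transcription start site (TSS) of the mouse mm10 genome. They were found by merging 4 lists of ATAC-seq peaks wherever peaks overlapped by at least 1 bp, and keeping merged regions with a peak in at least 2 lists. The 897310 peaks of the 4 lists merged into 287329 regions, of which 235426 had a peak in at least 2 lists. Of these, 33522 regions (14.2%) lay in deserts, 22736 of them at 500 to 1000 kb from the nearest coding TSS and 10786 farther than 1000 kb. A further 8037 merged desert regions had a peak in only 1 list and were not kept.

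The lists come from P19 cells, a line of mouse embryonic teratoma cells that were all grown in 10% fetal calf serum and that make their own NODAL and GDF3. In the inhibited state, cells were held overnight in 10 µM SB-431542, which blocks the type I receptor kinases that NODAL and Activin use, washed, and kept in fresh medium with the inhibitor for 1 h. In the acute and the prolonged state, cells were held in the same inhibitor, washed, and given 20 ng/ml Activin in fresh medium for 1 h or for 8 h. Untreated cells saw neither compound and represent chronic autocrine signalling. The SB-431542 and 1 h Activin cells were thus both taken 1 h after fresh serum-containing medium and the 8 h cells 8 h after it. In contrasts of this pair of states with 8 h or untreated cells, time since the medium change and signalling cannot be told apart. The study used 2 biological replicates per state (the labels list 48 libraries, 12 per state), and the authors merged both replicates before peaks were called. There is therefore 1 list per state and no spread between replicates, so differences between states are given as values and were not tested. Because all cells are of 1 line, they say nothing of how these regions behave in other cells.

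Gene deserts are long parts of the genome without protein-coding genes. Some border regulators of development and hold enhancers that act on those genes over great distances, others border large genes for cell adhesion and synapse formation, and some have no known role. In ATAC-seq, the transposase Tn5 inserts sequencing adapters into DNA that is not wrapped in nucleosomes, so a local excess of inserts marks open chromatin, as is found at promoters, enhancers and insulators. In such distal sites the proteins that keep chromatin open are sequence-specific transcription factors: FOXH1, the partner of SMAD2 in the NODAL pathway; POU factors such as OCT4, which bind the octamer; SOX factors; and AP-1, a dimer of FOS and JUN proteins that responds to serum and growth factors.

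Desert regions on which the results below turn are shown first, as letters of the reference genome (GRCm38, the build of mm10), written 5′ to 3′ on the stated strand with the motif in capitals. The first set holds 4 of the 101 desert regions of a repeated sequence called family 7 below. They are shown because the desert copies of this family had the lowest median shift in untreated cells among the repeated families described, and the capitals mark the octamer ATGCAAAT.
chr15:49328197-49328284 (minus strand, between Csmd3 and Trps1): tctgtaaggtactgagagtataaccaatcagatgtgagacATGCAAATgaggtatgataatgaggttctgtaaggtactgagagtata
chr16:81970464-81970551 (plus strand, between Ncam2 and Mrpl39): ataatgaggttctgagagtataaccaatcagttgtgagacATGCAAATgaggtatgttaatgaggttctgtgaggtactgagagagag
chr17:93827160-93827247 (plus strand, between Adcyap1 and Mettl4): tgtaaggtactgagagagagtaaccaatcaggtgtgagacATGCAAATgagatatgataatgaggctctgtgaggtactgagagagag
chr8:5941460-5941547 (plus strand, between Slc10a2 and Efnb2): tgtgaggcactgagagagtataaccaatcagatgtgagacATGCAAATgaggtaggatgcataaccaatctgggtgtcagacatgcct

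The next set holds 3 of the 21 desert regions of family 23, shown because most of its copies had no peak after 8 h Activin, and the capitals mark the AP-1 consensus TGACTCA.
chr3:71533256-71533342 (plus strand, between Otol1 and Sis): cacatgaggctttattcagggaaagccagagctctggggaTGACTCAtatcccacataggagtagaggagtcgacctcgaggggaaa
chr6:111288139-111288225 (minus strand, between Grm7 and Lmcd1): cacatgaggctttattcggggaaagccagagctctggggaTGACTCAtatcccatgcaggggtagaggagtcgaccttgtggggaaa
chr8:97573631-97573717 (minus strand, between Got2 and Cdh8): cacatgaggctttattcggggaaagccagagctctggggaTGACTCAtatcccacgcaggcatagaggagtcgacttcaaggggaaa

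Next are 2 copies of family 6, a strongly accessible family, with the FOXH1 consensus AATNCACA in capitals. The SOX consensus ACAATGG starts within its last letters and runs on into the lower-case bases.
chr1:101919017-101919124 (minus strand, between Cntnap5b and Cdh20): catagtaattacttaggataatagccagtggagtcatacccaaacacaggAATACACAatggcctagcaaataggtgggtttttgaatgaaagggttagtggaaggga
chr10:47631515-47631622 (plus strand, between Hace1 and Grik2): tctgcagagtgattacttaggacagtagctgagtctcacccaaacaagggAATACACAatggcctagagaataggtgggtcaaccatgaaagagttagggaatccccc

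The last 2 are single sites: an octamer in one of the 10 strongest desert regions and an AP-1 consensus in a region lost at 8 h.
chr4:38371118-38371225 (plus strand, between Lingo2 and 1700009N14Rik): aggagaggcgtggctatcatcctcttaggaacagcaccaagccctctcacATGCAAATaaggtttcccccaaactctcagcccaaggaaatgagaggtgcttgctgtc
chr12:6329952-6330058 (minus strand, between Klhl29 and Apob): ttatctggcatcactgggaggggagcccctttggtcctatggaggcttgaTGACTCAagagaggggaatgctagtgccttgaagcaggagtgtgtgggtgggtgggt

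The cells' identity was checked at promoters. All 6 embryonal carcinoma genes examined (Pou5f1, Sox2, Lin28a, Tdgf1, Sall4 and Dnmt3b) had a promoter peak in every list, as did Ptprc and Myod1 among the genes of other cell types, whereas Alb, Ins2 and Hbb-bs had none in any list. Depth differed between states. The lists held 209212 (8 h Activin) to 234758 (SB-431542) peaks, and the read background that MACS2 set against desert peaks, estimated here from their scores, was 29.1 reads per position with SB-431542, 27.1 at 1 h, 23 at 8 h and 24.7 in untreated cells. The 8 h list thus had the lowest background, at 79.0% of that with SB-431542, and the fewest peaks. The part of depth in differences between lists was not tested, but each count of gained and lost regions is also given with lists cut to equal length.

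Deserts were not poor in accessible regions, but they were poor in strong ones. The genome held 338.3 Mb of desert sequence (12.8% of all sequence that is not N), with 99.1 regions per Mb, against 87.4 regions per Mb in the 2309 Mb elsewhere. Chromosome Y contributed 43.3 Mb of desert and almost no regions, and without it the density was 113.5 per Mb in deserts and 89.2 per Mb elsewhere, a ratio of 1.27. The order turned with strength. MACS2 scores a peak by the -log10 of a q-value, and for regions whose highest -log10 q over the 4 lists was at least 5, 10, 20 and 50, the ratio of the density in deserts to that elsewhere was 0.956, 0.694, 0.534 and 0.415 (chromosome Y left out). At the cut of 20 this was 17.3 regions per Mb in deserts and 32.5 per Mb elsewhere, and 5131 desert regions (15.3%) passed it.

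Along the distance from the nearest coding TSS, the density of all regions was highest within 1 kb (336.7 per Mb), lowest at 1 to 2 kb (48.4 per Mb), between 65.9 and 91.4 per Mb in the bins from 2 to 500 kb, 101.4 at 500 to 1000 kb and 94.5 beyond 1000 kb. Regions with a highest -log10 q of at least 20 became fewer from 5 kb outwards, with 34.4 per Mb at 5 to 10 kb, 19.2 at 200 to 500 kb, 16.0 at 500 to 1000 kb and 13.5 beyond 1000 kb. Of the regions next to the threshold of 500 kb, one just inside it between Adgrl2 and Adgrl4 (chr3:150937590-150938129) had fold enrichments of 1.82, 1.91 and 1.72 with SB-431542, 1 h and 8 h Activin and no peak in untreated cells. Just outside, a region between Sqor and Sema6d (chr2:123281365-123282563) had 1.59, 1.54 and 1.67 with SB-431542, at 1 h and in untreated cells and no peak at 8 h.

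**Figure D1:**
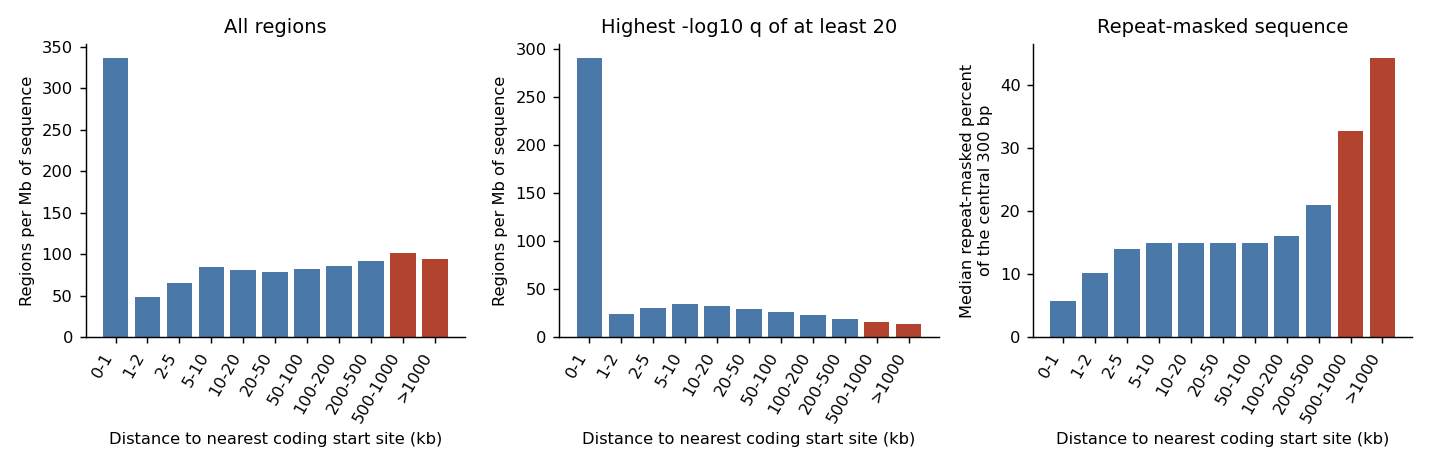
Merged regions by distance from the nearest protein-coding start site (kb, binned), as regions per Mb of sequence (left), regions per Mb with a highest -log10 q of at least 20 (middle) and the median percent of repeat-masked bases in the central 300 bp (right); bins over 500 kb, the gene deserts, are red. All regions were slightly denser in deserts than at 50 to 500 kb, strong regions became fewer in each bin beyond 5 to 10 kb, and the repeat content was 32.7% at 500 to 1000 kb and 44.3% beyond 1000 kb.

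The peaks themselves were weak. The authors' fold enrichment is the ratio of the pileup of reads over a peak to the local background in the same sample, and the value of a region is taken here as its highest peak. In deserts its median was 2.02 with SB-431542, 1.96 at 1 h, 2.08 at 8 h and 2.05 in untreated cells, and in the rest of the series it was 2.44, 2.30, 2.48 and 2.46. With SB-431542 the quartiles in deserts were 1.79 and 2.49 and the highest value was 11.9. To compare lists of different depth, the 162505 regions listed in every state were ordered by fold enrichment, list by list, and each place in the order was written as a percentile. Desert regions had a median percentile of 30.0, 31.4, 31.2 and 31.1 in the 4 states in the same order, against 53.5, 53.4, 53.3 and 53.3 in the rest of the series. Only 4.07% of them were in the top 10% with SB-431542, and 5.22% at 8 h. Desert regions were also slightly narrower, with a median width of 729 bp, against 759 bp at 50 to 500 kb and 787 bp over all regions. The median gap between neighbours in a desert was 4.49 kb.

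Some desert regions were nevertheless among the most accessible of the genome in every state. Among the 10 with the highest lowest percentile, a region 1369 kb from the nearest coding TSS between Cox7c, a gene of the respiratory chain, and Edil3, a matrix protein gene (chr13:87452456-87453117), had fold enrichments of 11.3, 10.2, 12.7 and 10.5 with SB-431542, at 1 h, at 8 h and in untreated cells. A region between the cadherin genes Cdh9 and Cdh10 (chr15:17885548-17886117) had 10.7, 9.99, 11.2 and 10.4. Both kept their rank near the top of every list. Their fold enrichments were lowest at 1 h and highest at 8 h, as were the medians of all desert regions given above.

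Others of the 10 strongest lay beside or inside genes of several kinds. Between Zeb2, a zinc-finger repressor, and Acvr2a, a type II receptor for Activin, chr2:47367317-47368770 had fold enrichments of 10.4, 9.89, 10.6 and 9.63. The region between Lingo2 and 1700009N14Rik whose octamer is printed above (chr4:38370767-38371552) had 10.6, 9.56, 10.3 and 9.55. A further 5 lay in Lsamp (chr16:40724080-40724983), between Ppp6c and Lrp1b (chr2:40332197-40333028), in Csmd1 (chr8:16314245-16315094), between Olfm4 and Pcdh17 (chr14:83008420-83009728) and between Nmbr and Cited2 (chr10:17178666-17179144). Shifts of all 10 against SB-431542 lay between -0.13 and 0.11 percentile points, although ranks this close to the top can hardly rise. Of the 100 strongest desert regions, 15 belonged to repeated sequence families of at least 20 copies, 3 held a CTCF consensus and 9 lay inside a coding gene.

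The rule also kept regions at the other end of the scale. The desert region farthest from any coding TSS (chr14:91196130-91196586, 2694 kb away between Pcdh20 and Pcdh9) had fold enrichments of 1.93, 1.96 and 2.08 with SB-431542, at 8 h and in untreated cells and no peak at 1 h. The next farthest, in the same desert (chr14:91227234-91227558), held an octamer and had 3.50, 2.46, 2.59 and 2.29. The widest region, of 7440 bp between Gm5784 and Asap2 (chr12:20226861-20234300), was low throughout with 1.77, 1.78, 1.83 and 1.91.

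By position, 28722 desert regions (85.7%, 95% Wilson interval 85.3 to 86.1) lay in neither a coding gene nor a non-coding or model transcript. Intervals on shares cover counting error only, and neighbouring regions are not independent. Inside coding genes with a distant TSS lay 2680 regions (7.99%), 33 of them in an exon. The genes with the most regions were Macrod2 (242), Lrp1b (201), Ptprd (128), Cntnap2 (102) and Csmd3 (101), all very long genes. The share inside coding genes was close to the 7.75% of desert sequence that lies in them. Within 1 kb of a non-coding or model start site were 248 regions. These had a median percentile of 44.2 with SB-431542 and 73.8% had a peak in all 4 lists, against 29.9 and 65.5% in the other desert regions. In the GENCODE annotation, 3927 desert regions (11.7%) lay within 500 kb of a coding start that the RefSeq set does not hold.

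The desert sequence formed 350 stretches of at least 100 kb, 27 of them on chromosome Y. Outside Y, the median stretch held 101 regions per Mb, with 28.7 and 189 per Mb at the 10th and 90th percentile of stretches. The stretch with the most regions lay between Tenm2, a teneurin adhesion gene, and Mat2b, which encodes a subunit of the enzyme that makes S-adenosylmethionine (chr11:37444242-40192681), with 630 regions in 2.75 Mb. Next came Cntnap5b to Cdh20 (535 regions in 4.00 Mb), Kcnt2 to B3galt2 (506 in 2.39 Mb), Sel1l to Flrt2 (489 in 2.84 Mb) and Nudt12 to Efna5 (477 in 2.87 Mb). The densest was the 0.468 Mb between Lrriq3 and Negr1, a neuronal adhesion gene, with 254 regions per Mb. The longest outside Y, the 4.42 Mb between the protocadherin genes Pcdh20 and Pcdh9, held only 157 regions, or 35.5 per Mb.

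Low density went with the chromosome. Desert density was 43.8 per Mb on chromosome 14, 32.8 on X and 0.716 on Y, whereas the other autosomes ranged between 90.4 (chromosome 7) and 192.5 (chromosome 11). Sequence outside deserts was also sparse on these chromosomes, with 51.0 per Mb on 14, 35.2 on X and 0.491 on Y. The desert regions of 14 and X that were listed were stronger, with a median -log10 q with SB-431542 of 8.09 and 8.39, against 4.70 to 6.22 on the other autosomes. The number of copies of each chromosome in these cells was not measured, so its part in these values was not tested. The authors also dropped read pairs that mapped ambiguously, and the part of this filter was not tested either.

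Regions were next followed across the 4 states. A peak in all 4 lists was found for 21974 desert regions (65.6%, 65.0 to 66.1), for 65.6% of regions at 50 to 500 kb and for 69.0% of all regions. Regions in the SB-431542 and 1 h lists only numbered 2643 (7.88%), close to the 7.93% of all regions. Regions missing only from the 8 h list numbered 2416 (7.21%), against 5.00% of all regions, and those in the 8 h and untreated lists only numbered 771 (2.30%), against 3.23%.

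**Figure D2:**
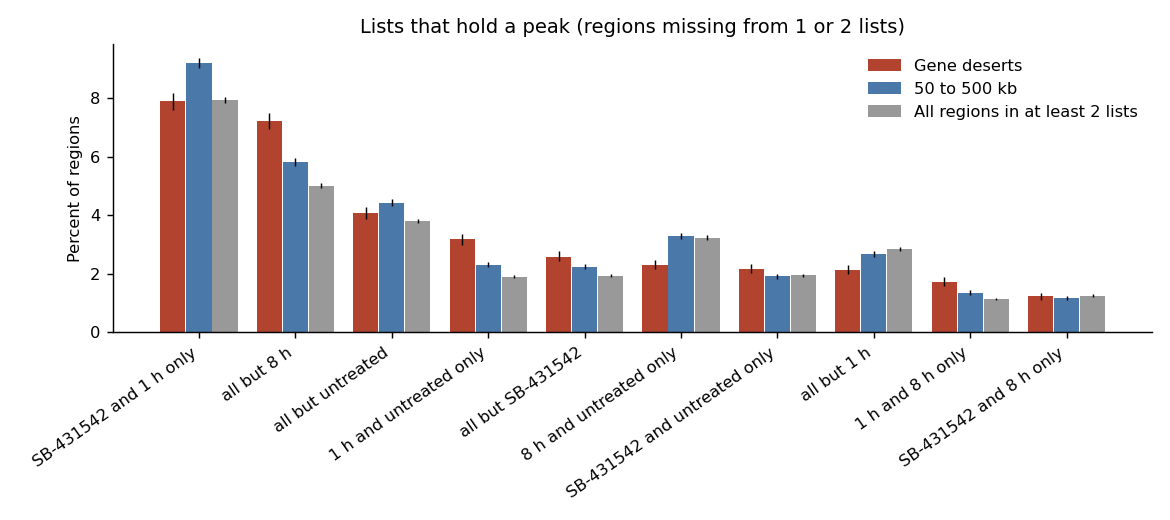
Percent of regions with each pattern of lists other than all 4, in gene deserts (33522 regions), at 50 to 500 kb (103458) and over all regions in at least 2 lists (235426); bars are shares and error lines are 95% Wilson intervals. In deserts the patterns of SB-431542 with 1 h only (7.88%) and of all but 8 h (7.21%) were the most frequent, and the pattern of 8 h with untreated only (2.30%) was below its share of all regions.

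At 1 h Activin against SB-431542, 2508 desert regions (7.48%, 7.20 to 7.77) had been gained, meaning a peak at 1 h and none with SB-431542, against 4.97% of all regions, and 1849 (5.52%) had been lost, against 6.04%. Among the 21974 desert regions with a peak in every list, 3496 (15.9%) were higher at 1 h by over 10 percentile points, against 11.3% of all shared regions, and 2551 (11.6%) were lower, against 12.1%. With lists of equal length, 10.3% of desert regions were gained and 6.45% lost, against 6.31% and 6.44% of all regions. After dropping peaks with a -log10 q under 5, the balance turned: 521 of 14837 desert regions (3.51%) were gained and 1719 (11.6%) were lost, against 1.85% and 8.78% of all regions. Gained shares were thus above those of all regions under each of these cuts, whereas lost shares were below, level with or above them.

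Single regions at 1 h took several courses. The gain with the highest -log10 q, chr1:100843565-100844217 between Cntnap5b and Cdh20, held a FOXH1 consensus and had no peak with SB-431542 and fold enrichments of 3.02, 4.65 and 3.01 at 1 h, at 8 h and in untreated cells. A gain between Cntn5 and Jrkl (chr9:12394586-12395969) had 2.70, 3.70 and 3.52, so both were also listed at 8 h and in untreated cells. The largest rise, between Fbxo33 and Lrfn5, a synaptic adhesion gene (chr12:60215442-60216725), was highest at 1 h, with 2.31, 4.70, 4.16 and 3.02 in the 4 states. The losses at 1 h with the highest -log10 q had values of 19.1, on chromosome Y, and 17.2 with SB-431542, against a median of 5.17 over the desert regions with a peak in that state. The second of these, between Nudt12 and Efna5 (chr17:59842074-59842372), had 2.99 with SB-431542, no peak at 1 h, and 2.45 and 2.69 at 8 h and in untreated cells. The largest fall at 1 h, between Impg1 and the serotonin receptor gene Htr1b (chr9:81041229-81042832), came back at 8 h, with 2.59, 1.58, 2.80 and 2.24. In untreated cells its shift was -13.1 percentile points. The third largest, between Klhl29 and Apob (chr12:6967735-6968075), came back at 8 h and in untreated cells, with 2.75, 1.81, 3.38 and 3.89. The second largest, between Mageb4 and Il1rapl1 (chrX:87419883-87421051), did not come back, with 2.91, 1.87, 1.59 and 1.57. These falls were picked as extremes at 1 h, which favours less extreme values in the other states.

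At 8 h Activin, 2217 desert regions (6.61%) were gained, against 6.31% of all regions, and 5784 (17.3%, 16.9 to 17.7) were lost, against 14.9%. Among shared regions 4977 (22.6%) were higher by over 10 percentile points, against 18.7% of all shared regions, and 3999 (18.2%) were lower, against 18.5%. The balance of gains and losses changed with the cut on the lists. With lists of equal length, 3702 desert regions (12.3%) were gained and 3472 (11.5%) were lost, against 9.71% and 11.3% of all regions. After dropping peaks with a -log10 q under 5, 935 of 14837 desert regions (6.30%) were gained and 3153 (21.3%) lost, against 4.91% and 16.3% of all regions. Within every class of highest -log10 q, however, the share lost at 8 h was lower in deserts than at 50 to 500 kb, as given at the end.

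In untreated cells, 2699 desert regions (8.05%) were gained, against 7.06% of all regions, and 4416 (13.2%) were lost, against 13% of all regions. Among shared regions 5179 (23.6%) were higher, against 19.9%, and 4105 (18.7%) were lower, against 18.8%. With lists of equal length, 12.7% were gained and 11% lost, against 9.77% and 11.5% of all regions. After dropping peaks with a -log10 q under 5, 1052 desert regions (7.09%) were gained and 2682 (18.1%) lost, against 5.11% and 14.1% of all regions, so that the lost share was then above that of all regions. The median shift of shared desert regions was 0.69 percentile points at 1 h, 1.01 at 8 h and 1.04 in untreated cells, against 0.28, -0.17 and 0.077 over all shared regions.

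Strength was held alike to see how far these shares followed it. Among shared regions with a mean percentile of at least 75, 16.2% of 2294 desert regions were higher at 8 h and 6.28% lower, against 10.4% and 7.98% of 12369 regions at 50 to 500 kb. Among those with a mean percentile under 25, 18.1% of desert regions were higher at 8 h and 17.1% lower, against 19.9% and 17.5% at 50 to 500 kb. Between these, at a mean percentile of 50 to 75, 28.9% were higher at 8 h and 19.4% lower, against 25.2% and 22.4% at 50 to 500 kb. The surplus of rises over falls at 8 h was thus wide in both upper classes of desert regions and small in the lowest. In untreated cells, 15.7% of desert regions in the highest class were higher and 8.54% lower, against 9.91% and 9.35% at 50 to 500 kb, and at 50 to 75 the shares in deserts were 29.2% and 21.1%, against 26.4% and 24.1%.

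Named regions show what these shares hold. The gain at 8 h with the highest -log10 q, between the protocadherin gene Pcdh7 and G6pd2 (chr5:58498347-58498774), had no peak with SB-431542 and fold enrichments of 2.00 at 1 h, 6.13 at 8 h and 5.04 in untreated cells. It holds a SOX consensus, and its central 300 bp are wholly repeat-masked. The next, between Celf4, a gene for an RNA-binding protein, and Pik3c3, a lipid kinase gene (chr18:26607085-26607943), had no peak with SB-431542 and 2.07, 5.37 and 3.89 in the other 3 states. Both were weak at 1 h and highest at 8 h.

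The largest rises among shared regions had the same form. Between Myom2 and Csmd1, chr8:15821348-15823078 had fold enrichments of 1.88, 2.21, 5.33 and 2.83 with SB-431542, at 1 h, at 8 h and in untreated cells, a rise of 77.8 percentile points at 8 h. Between Adcyap1 and Mettl4, chr17:93898639-93902238 had 1.91, 1.69, 5.43 and 2.04, so that it was high at 8 h alone. Between the Eph receptor gene Epha7 and Map3k7, which encodes the kinase TAK1, chr4:29380248-29381501 had 1.70, 2.09, 4.06 and 2.51. In untreated cells the largest rise was at chr5:56306658-56307097 between Stim2 and Pcdh7, with 1.72, 1.85, 2.75 and 3.57. A region between Klhl29 and Apob (chr12:6813223-6813643) had 1.79, 1.9, 4.43 and 3.61. The gains in untreated cells next after that by Pcdh7 were chrX:46962228-46962597 between Actrt1 and Smarca1, a chromatin remodeller gene, with an octamer and 1.95, 3.45 and 4.28 at 1 h, at 8 h and in untreated cells, and chr1:147022045-147022411 between Brinp3 and Pla2g4a, with 2.15, 3.89 and 4.01. The last 4 of these had higher values at 8 h and in untreated cells than at 1 h. That between Stim2 and Pcdh7 was only at percentile 54.3 at 8 h.

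Losses at 8 h were led by a region between Got2 and Cdh8 (chr8:98007839-98008956), with fold enrichments of 7.97 with SB-431542 and 6.48 at 1 h and no peak at 8 h or in untreated cells. Between Prmt6 and Amy2b, chr3:111691190-111692439 had 6.85 and 5.80 with SB-431542 and at 1 h, no peak at 8 h and 1.89 in untreated cells. The central 300 bp of both are wholly repeat-masked. A region between Tbc1d2b and Zic1 (chr9:90838155-90838777), lost in untreated cells, had 3.50 and 3.47 with SB-431542 and at 1 h and 1.94 at 8 h. Between Klhl29 and Apob, chr12:6329858-6330204, whose AP-1 consensus is printed above, had 4.88 and 4.28 with SB-431542 and at 1 h. It had no peak at 8 h or in untreated cells. In this desert, one region was thus lost at 8 h while another was among the largest rises.

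The falls among shared regions given next were larger at 8 h than any at 1 h. Between Nudt12 and Efna5, chr17:60417067-60417781, a copy of family 23, had fold enrichments of 3.65, 3.06, 1.64 and 1.67. Between the cadherin genes Cdh2 and Dsc3, chr18:17990892-17992420 had 3.83, 2.79, 1.74 and 1.71. It had already shifted by -16.1 percentile points at 1 h, and by -70.3 at 8 h. Among the largest falls in untreated cells were those at chr7:61339952-61340648 between the imprinted genes Snrpn and Ndn (3.98, 5.28, 2.02 and 1.62) and in Macrod2 at chr2:141587230-141588282 (4.69, 5.15, 2.31 and 1.81). In all 4 the SB-431542 and 1 h values were above those at 8 h and in untreated cells.

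**Figure D3:**
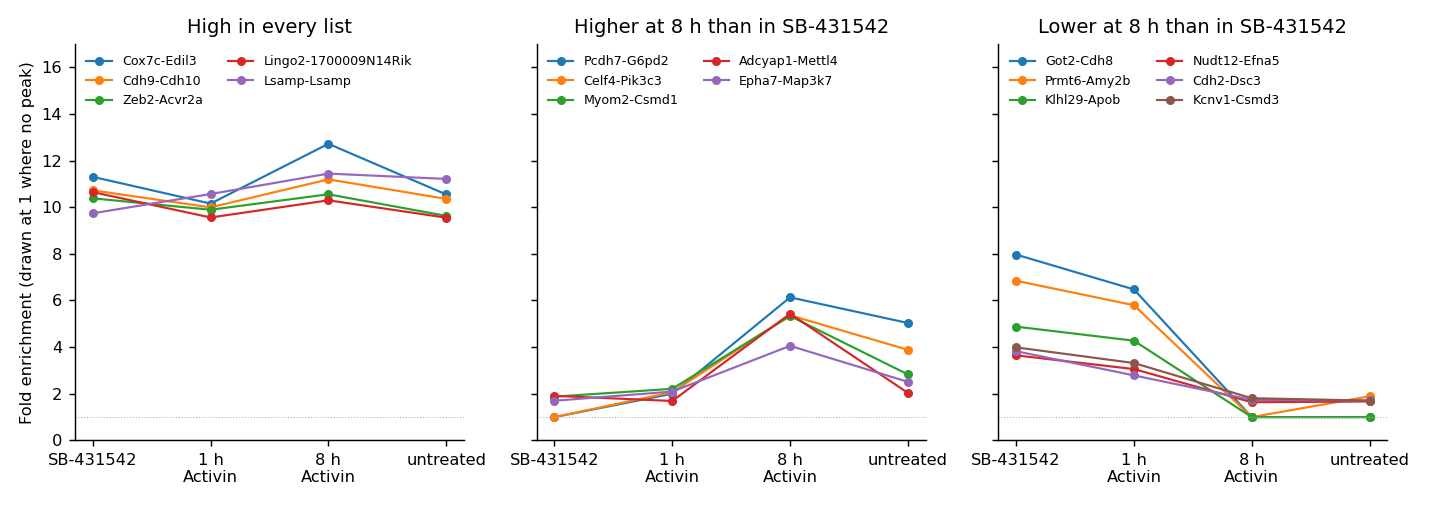
Fold enrichment in the 4 states for 5 of the strongest desert regions (left), 5 regions gained or risen at 8 h Activin (middle) and 6 lost or fallen at 8 h (right), each labelled by its flanking genes; points without a peak are drawn at 1. Those on the left stayed between 9.55 and 12.7 in every state, the middle set was highest at 8 h, and the right set was high with SB-431542 and at 1 h only.

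Deserts were then taken as wholes. Of 169 stretches with at least 50 regions, which held 89.0% of desert regions, the median shift of a stretch at 8 h ranged between -9.46 and 8.57 percentile points, with a middle value of 1.13. The lowest was the stretch between Mbd2 and Dcc, the netrin receptor gene, on chromosome 18, with 51 regions and 31.4% lost, and the highest that between Fat3 and Chordc1 on chromosome 9, with 73 regions. The share of regions lost at 8 h was 38.2% between Slco6d1 and Cntnap5b and 4.49% between Pom121l12 and Vstm2a, with a middle value of 17.2%. Stretches with few shared regions scatter more, and these were picked as extremes.

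Genes at the borders of deserts were described by 3 lists. Of 62 developmental regulators known for long-range regulation, 25 bordered deserts with regions, 1277 in all. Nr2f1, an orphan nuclear receptor gene, had 327 and Sox9 148. At 8 h the regions of this list were gained in 6.66% and lost in 18.1%, and their median shift was 1.69. Of 48 adhesion and synaptic genes, 39 bordered deserts, with 9458 regions, led by Flrt2 (838), Pcdh7 (817) and Cdh8 (790). Their regions were gained at 8 h in 6.54%, lost in 17.7%, and had a median shift of 0.83. Both lists were close to the 6.61%, 17.3% and 1.01 of all desert regions.

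Few of the 20 NODAL/Activin target genes of the last list bordered deserts, among them Tbx3, a T-box repressor gene, with 3 regions. The genes of this list were named by the study or are textbook targets.

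Desert regions differed from other regions in repeats and base composition. In the central 300 bp, a median of 36.3% of bases were masked as repeats in the reference, against 17% at 50 to 500 kb and 16.3% over all regions. Over 50% of bases were masked in 40.01% of desert regions, against 22.1% of all regions. Desert sequence as such was also richer in repeats, with 48.7% masked (41.5% without chromosome Y) against 34.6% elsewhere. It was poorer in G and C, with 37.8% against 42.2%. Desert regions had a median GC content of 44.7%, against 47.0% over all regions, and 310 of them (0.92%) had at least 10 CpGs, against 7.68% of all regions.

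Motifs were searched as exact letters on both strands in the central 300 bp. A CTCF consensus, bound by the insulator protein CTCF, was in 267 desert regions (0.80%, 0.71 to 0.90), against 2.06% at 50 to 500 kb and 2.68% of all regions. The share increased with strength. It was 0.41% in desert regions with a highest -log10 q of 1 to 5 and 3.18% at 50 or more, against 0.37% and 5.79% at 50 to 500 kb. At the lowest strength, deserts and the next class were therefore close in CTCF, and they lay farther apart at higher strength.

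Among other motifs, desert regions held the FOXH1 consensus AATNCACA in 6.28% (5.52% of all regions) and SOX (ACAATGG) in 5.77% (5.23%). They held the octamer (ATGCAAAT) in 2.95% (2.76%) and TCF-LEF (ATCAAAG), bound by the nuclear effectors of WNT signalling, in 5.85% (5.17%). At 50 to 500 kb the shares were close to those in deserts, with 6.08% (FOXH1), 5.63% (SOX), 3.11% (octamer) and 5.70% (TCF-LEF). Desert regions held AP-1 (TGACTCA) in 6.73% (8.15%), ZIC (CNCAGCNGG) in 4.12% (7.27%), KLF (CCACACCC) in 1.77% (2.69%) and ETS (CCGGAAGT) in 0.12% (0.54%). The palindromic SMAD consensus GTCTAGAC was in 79 desert regions (0.24%), against 0.27%. YY1 (AAGATGGC) was in 3.78% (2.69%), and 556 of these 1267 regions were copies of 1 repeated family. FOX (TGTTTAC) was in 4.46% (4.34%), TEAD (CATTCCA) in 5.65% (5.47%), ESRRB (TCAAGGTCA) in 0.67% (1.00%), T-box (AGGTGTGA) in 1.13% (1.36%), OTX (TAATCC) in 11.1% (11.6%) and the letters AGATAA of GATA factors in 17.4% (15.1%). At 50 to 500 kb FOX was in 4.72%, TEAD in 5.86% and AGATAA in 16.5%. FOXH1 and T-box sites can overlap through shared letters on opposite strands, as can FOXH1 and SOX on 1 strand. A match is a description of the letters and not a measurement of binding.

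The AP-1 consensus went with peaks found with SB-431542 and at 1 h only. It was in 511 of 2643 desert regions in the SB-431542 and 1 h lists only (19.3%, 17.9 to 20.9), in 5.73% of those in all 4 lists and in 3.24% of those in the 8 h and untreated lists only. At 50 to 500 kb the shares were 28.3%, 6.57% and 3.23%. With lists of equal length they were 27.0% (24.9 to 29.2), 5.93% and 3.23% in deserts. Among shared desert regions, it was in 12.2% of those lower at 8 h and in 3.44% of those higher.

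The 1260 shared desert regions with AP-1 had a median shift of 1.35 percentile points at 1 h, -5.16 at 8 h and -4.85 in untreated cells, against 0.65, 1.26 and 1.30 in shared desert regions without it. Their shift was thus slightly above that of other desert regions at 1 h and below it at 8 h. With SB-431542 their median percentile was 37.9, against 29.5 in shared desert regions without the consensus. The shift was alike without repeated families (-4.79 at 8 h, 1172 regions). It was -4.22 at 8 h in regions at 50 to 500 kb with the consensus, so a fall of like size stood outside deserts too. In the AP-1 regions, 489 fell by over 10 points at 8 h and 171 rose.

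ZIC, TCF-LEF, FOXH1 and ESRRB consensuses went with the opposite pattern. In desert regions of the 8 h and untreated lists only, ZIC was in 8.17% (6.44 to 10.3), TCF-LEF in 10.1% (8.18 to 12.4) and FOXH1 in 8.56% (6.79 to 10.7), against 4.37%, 5.76% and 6.38% in regions of all 4 lists. ZIC factors are zinc-finger proteins of early embryos, and ESRRB is an orphan nuclear receptor of pluripotent cells. Shared desert regions with ZIC had a median shift of 4.00 at 8 h and 3.23 in untreated cells, those with ESRRB (147 regions) 5.11 and 5.18, those with TCF-LEF 3.28 and 1.70 and those with FOXH1 2.27 and 2.18. The 56 with the SMAD palindrome had 3.15 and 2.76. At 50 to 500 kb the same motifs had shifts at 8 h of 2.07 (ZIC), 3.56 (ESRRB), 2.12 (TCF-LEF), 1.61 (FOXH1) and 1.41 (SMAD).

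**Figure D4:**
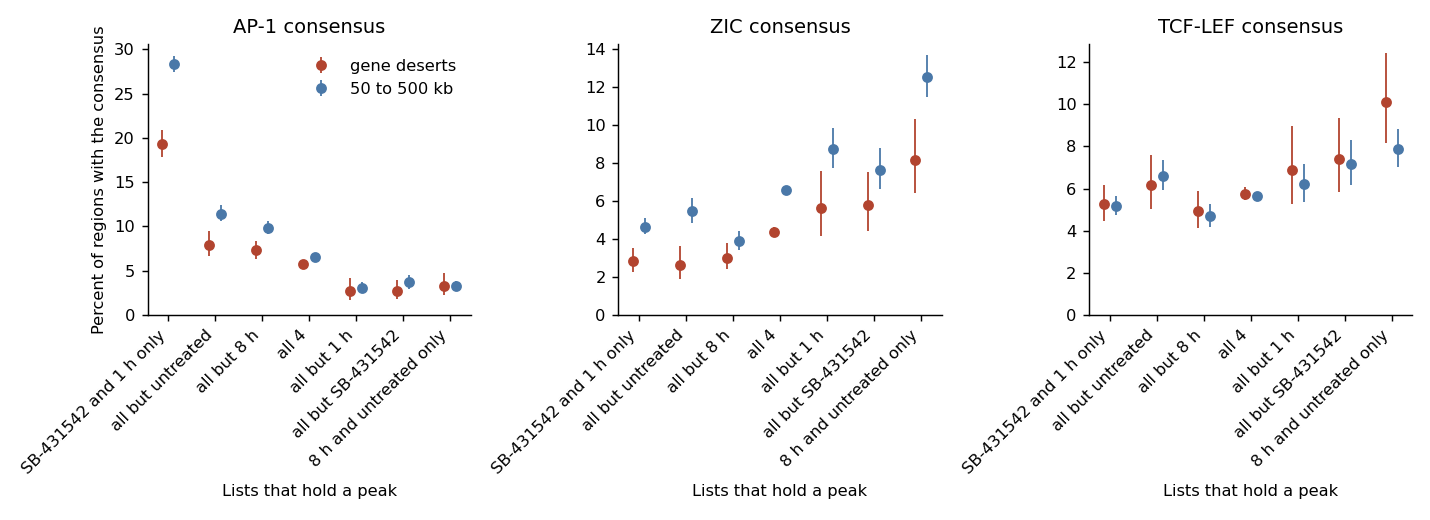
Percent of regions with an AP-1, a ZIC or a TCF-LEF consensus in the central 300 bp, by the lists in which the region had a peak, in gene deserts and at 50 to 500 kb; error lines are 95% Wilson intervals. AP-1 stood out in the SB-431542 and 1 h only pattern (19.3% in deserts and 28.3% at 50 to 500 kb), ZIC (8.17% in deserts) and TCF-LEF (10.1%) in the 8 h and untreated only pattern.

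Many desert regions were copies of one another. When the central 300 bp were compared by BLAST at no less than 85% identity over at least 200 bp, 5525 desert regions (16.5%) fell into 273 families of at least 2. The 24 families of at least 20 copies held 4680 (14%), and their sequences matched 9830 regions outside deserts (4.87%). The largest, family 1, had 2752 desert copies, 96.3% masked, with a median fold enrichment of 1.93 with SB-431542 and shifts near 0. Reads from near-identical copies are hard to place, so values of single copies are uncertain. The families carry no names in the files used here and are given numbers by size.

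Family 7 had 101 desert copies on 20 chromosomes with a median identity of 91.0%, and 94 of them held the octamer. Its median shift was -3.41 at 1 h, -11.3 at 8 h and -21.9 in untreated cells, where 53 of 67 shared copies fell by over 10 percentile points and 2 rose. Among the printed copies, that between Csmd3 and Trps1 had fold enrichments of 9.12, 5.94, 6.62 and 5.42, that between Ncam2 and Mrpl39 5.10, 4.15, 3.99 and 3.48, and that between Adcyap1 and Mettl4 4.83, 4.42, 3.77 and 2.76. The copy between Slc10a2 and Efnb2 changed less, with 5.27, 4.49, 4.52 and 4.94. Printed copies were picked for a high -log10 q with SB-431542, which favours lower values in the other states. Outside deserts, 555 matching copies had median shifts of -3.41, -12.2 and -22.6, nearly the same as in deserts.

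As a set, desert regions with an octamer did not fall in untreated cells. The 692 shared desert regions with an octamer had a median shift of 2.78 in untreated cells. The 62 of them in family 7 had -21.8, and the 630 outside it had 4.32, with 211 rising by over 10 points and 80 falling. The medians of family 7 and of the other octamer regions therefore lay on opposite sides of 0. Other families with the octamer went both ways, by medians over shared copies with or without it. Family 20, with the octamer in 14 of 23 desert copies, had -6.18 at 8 h and -0.69 in untreated cells. Its 41 copies elsewhere, 29 of them with the octamer, had -7.26 and -5.96. Family 24, with the octamer in 6 of 20 desert copies, had 7.28 and 10.1.

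Family 23, with 21 desert copies and an AP-1 consensus in 9 of them, was lost most often. No peak was left at 8 h for 13 of the 21 (61.9%), and 42 of 56 matching copies outside deserts (75%) were lost too. The printed copy between Otol1 and Sis had fold enrichments of 3.66 and 3.62 with SB-431542 and at 1 h and no peak at 8 h or in untreated cells. The copy between Got2 and Cdh8 had 3.27 and 3.12 and likewise no peak at 8 h or in untreated cells. That between Grm7 and Lmcd1 had 3.83, 2.96, 2.33 and 1.96. All 3 were high with SB-431542 and at 1 h and low or not listed at 8 h and in untreated cells. Printed copies were picked for a high -log10 q with SB-431542, however, which favours this order. The 7 shared copies had a median shift of -25.9 at 8 h.

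Other families were strong or rose. Family 6, with 101 desert copies, had a median fold enrichment of 3.78 and percentile of 75.9 with SB-431542, and 93 copies had a peak in all 4 lists. SOX and FOXH1 consensuses were in 41 copies each. A FOXH1 consensus overlapping a SOX consensus, as in the printed copies, was in 29 of the 101, and in only 5 of the 33421 other desert regions. Its 440 copies outside deserts held this arrangement in 145, with a median fold enrichment of 2.92. The printed copy between Hace1 and Grik2, a glutamate receptor gene, had 8.38, 7.68, 10.3 and 9.46 in the 4 states, and that between Cntnap5b and Cdh20 had 7.60, 8.08, 8.61 and 7.68. Family 9, with 59 desert copies and a ZIC consensus in 42, had a median fold enrichment of 3.22 and median shifts of 4.56 at 8 h and 5.62 in untreated cells, against 0.77 and 5.37 in 251 copies elsewhere.

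Family 4, with 168 desert copies, fell in untreated cells with a median shift of -7.76, and its 410 copies elsewhere had -8.80. Family 12, with an AP-1 consensus in 31 of 52 desert copies, had -5.97 at 8 h and -0.69 in untreated cells. Copies in and outside deserts thus had close medians in families 4 and 7, while the medians of family 23 in untreated cells (-15.1 in deserts and -29.2 elsewhere) and of family 9 at 8 h lay farther apart. Without the families of at least 20 copies, 28842 desert regions remained.

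**Figure D5:**
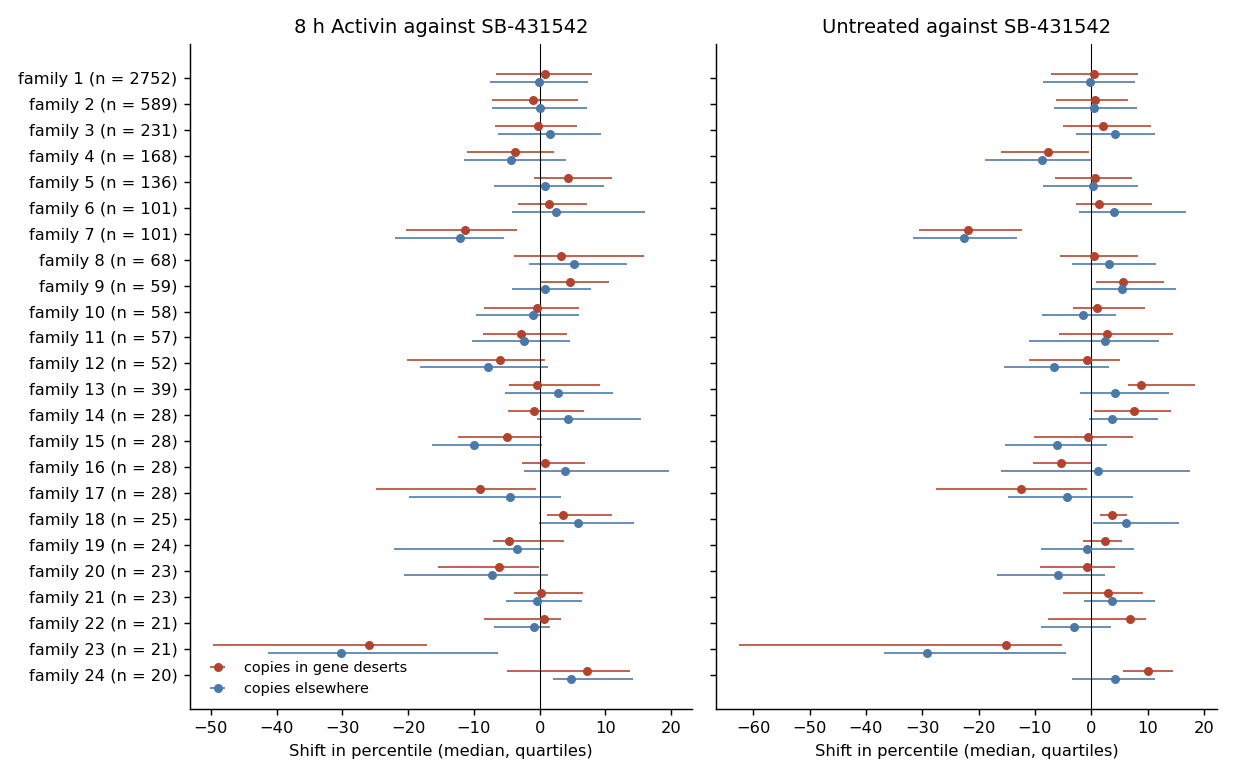
Median shift in percentile points (points) with quartiles (lines) at 8 h Activin and in untreated cells against SB-431542, for each sequence family of at least 20 desert copies, in copies in deserts and copies elsewhere. Family 7 lay at -21.9 in deserts and -22.6 elsewhere in untreated cells, family 23 at -25.9 and -30.2 at 8 h, and family 1 within 1 percentile point of 0.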

How the data were processed

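P19 cells were profiled by ATAC-seq in 4 states. The authors' tools were cutadapt 1.9.1 (trimming), BWA 0.6.2 (alignment to mm10), Picard (merging of the libraries of a state), bedtools 2.26.0 and MACS2 2.1.1.20160309 in broad mode, run with no control sample. Read pairs that mapped ambiguously were dropped by the authors before peaks were called. A step that removes artefact-prone intervals is not given in the sources used here. The deposited lists hold a fold enrichment (a ratio of pileup to local background), the -log10 of a p-value and of a q-value, and a display score that the authors' caller derives from the q-value and that was not used here. The lists give no read counts, so depth was described by the background implied by fold enrichment and -log10 p.

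Peaks lay on chromosomes 1 to 19, X and Y. Coding starts (NM), transcripts and sequence came from RefSeq on GRCm38.p6, the build of mm10, and the GENCODE starts from annotation vM21. Repeat content is the percent of soft-masked bases. Scripts used Python 3.11.15, pandas 2.3.3, NumPy 2.4.6, SciPy 1.17.1, matplotlib 3.10.9 and BLAST+ 2.17.0, and were tested on simulated data. Sequence families are groups of central 300 bp windows linked by matches.

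Named regions were the 10 with the highest lowest percentile, 3 gained, 3 lost, 3 risen and 3 fallen per comparison with SB-431542, the 3 farthest, 3 widest, and 3 on each side of the threshold, of which some are given. Named stretches were the 5 richest, densest and longest. Extremes of shift, families and printed copies were chosen after their values were seen. Printed copies of families were picked for a high -log10 q with SB-431542 among copies with the motif. Members, motifs and lists were chosen with earlier results of these data known. Results at some genes are not reported here.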

Additional observations from a re-analysis of the deposited data

How the results depend on the processing

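Dropping peaks with a -log10 q under 5 left 14837 desert regions, a density ratio of 0.77, 59.2% of regions in all 4 lists, a CTCF share of 1.32% and a median repeat content of 33.7%. The same cut gave 521 gained and 1719 lost regions at 1 h, 935 gained and 3153 lost at 8 h, and 1052 gained and 2682 lost in untreated cells. It also gave 1434 regions higher and 1072 lower at 1 h, 2558 and 1619 at 8 h, and 2563 and 1763 in untreated cells, by over 10 percentile points. With lists of equal length the density ratio was 1.08, 64.7% of desert regions were in all 4 lists, and 3702 were gained and 3472 lost at 8 h. Counting a list only where its peaks covered at least 50% of a region left 49.7% in all 4 lists. A threshold of 250 kb gave 63169 regions, a density ratio of 1.11, a CTCF share of 0.97% and a repeat content of 29.0%, and one of 1000 kb gave 10786 regions, a ratio of 1.07 and 66.6% in all 4 lists. Adding non-coding start sites left 21375 regions, and a window of 500 bp a CTCF share of 1.12%. The density ratio was 1.27 without chromosome Y, and 0.53 for regions with a highest -log10 q of at least 20. These last alternatives, GENCODE start sites, leaving out families, and AP-1 shares in lists of equal length were added after the data were seen. Of 92 values under alternatives, 33 moved, counts by over 1.5 times and shares, medians and ratios out of their 95% interval for counting error, and 59 did not. Counts over different numbers of regions can stay within that limit while shares move: losses at 1 h were 5.52% of desert regions, and 11.6% after the cut at 5. Unplaced scaffolds hold no peaks in the lists and gave no value. No paired analysis was possible because each state is 1 list that merges both replicates. For the same reason no replicate could be left out, and the spread between replicates limits every statement on states. Losses lay mostly among weak peaks: 28.9% of desert regions with a highest -log10 q of 1 to 5 were lost at 8 h, and 0.20% of those at 50 or more. At 50 to 500 kb these shares were 30.7% and 0.24%. In each class between, the lost share was also lower in deserts than at 50 to 500 kb. It was 6.997% against 10.91% at a highest -log10 q of 10 to 20, and 1.682% against 2.947% at 20 to 50.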
